A study of Mus musculus with 2 samples.

Results

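Described here are 38 genes of the unfolded protein response and of protein translocation into the endoplasmic reticulum (ER), taken by gene symbol from a list and found, all 38, among the 14774 genes with counts. RNA came from cells labelled as regulatory T cells (Tregs), CD4+CD25+ cells of C57BL/6 spleens, after 5 days of co-culture with SVEC4-10, an established mouse endothelial cell line transformed with SV40. In one group the SVEC4-10 cells had received a control oligonucleotide, and in the other small interfering RNA against Capns1, the gene of the small calpain subunit. Each group had 1 library, called here the control and the knockdown co-culture library; no replicate shows how far such cultures vary, so no p-value is given. It was thus the endothelial partner that received the interfering RNA, not the cells labelled as sequenced.

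The ER folds proteins that will be secreted or built into membranes. When unfolded protein accumulates there, 3 sensors in the ER membrane respond: IRE1 (gene Ern1) splices the RNA of the transcription factor XBP1, PERK (Eif2ak3) phosphorylates eIF2-alpha and so favours translation of ATF4, and ATF6 is cut to release a transcription factor. These factors raise chaperones, degradation factors and, through ATF4, genes of amino acid supply and stress. Other kinases of eIF2-alpha also favour ATF4, so the label PERK branch used below does not say which kinase acted. That was not tested. Nascent chains enter the ER through the SEC61 channel with its partner complexes. The programme is best known in lymphocytes for the secretory expansion of plasma cells.

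Summed over listed genes there were 47724379 control and 46938963 knockdown reads. Values below are reads and CPM (reads per 1000000 after TMM scaling), and a fold is knockdown over control co-culture CPM. The 95% interval is exact (Clopper-Pearson) and taken on the read ratio; it covers counting error only and compares these libraries, not the conditions. Reads copied by PCR and lacking molecular identifiers are not independent, so it may be too narrow. The defining markers did not bear out a pure Treg sample: of 12 T cell and Treg markers 11 were listed, with Foxp3 at 250 and 221 reads, while all 10 B cell markers were listed, with Cd79a at 26767 and 24188 reads. Per kilobase of transcript Foxp3 stood at 1.36 and 1.23 CPM and Cd79a at 383 and 355 CPM. Which cells gave the reads of the 38 genes was not measured, and in such bulk RNA fewer cells of a type and less RNA per cell cannot be told apart.

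The 38 genes lay close to equality, but their roles went different ways. Atf4, the transcription factor of the PERK branch, and all 4 of its stress effectors among the members (Ddit3, Trib3, Chac1 and Asns) were higher in the knockdown co-culture library, at folds from 1.097 to 1.15. The 3 sensor genes were lower, at folds from 0.873 to 0.955. With the trend of fold on transcript length removed, only Eif2ak3 of these kept an interval below 1. The lectin chaperones and disulfide isomerases ran from 0.909 to 1.01, and the small SEC61 subunits Sec61b and Sec61g stood at 1.14 and 1.14. None of the 38 was as much as 25% higher or as low as 0.8-fold.

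Against the other genes of these libraries the members as a list did not stand out by large differences. A smaller share of them than of listed genes was at least 1.1-fold lower. A 2-fold difference either way with an interval that excludes 1 was met by 0 of 38 members and by 0.142% of all listed genes. A level at least 25% higher was met by 0 members and 2.94% of listed genes, and a fold of 0.8 or lower by 0 members and 4.9% of listed genes. At the smaller fold of 1.1, chosen after the values were seen, 6 members were higher and 1 lower, or 15.8% and 2.63%, against 15.2% and 15.2% of listed genes. The interval lay above 1 for 13 members (34.2%) and below 1 for 9 (23.7%), against 24.2% and 22.7% of listed genes. With raw reads, unscaled, the counts were 11 above and 17 below, against 17.9% and 29.9% of listed genes.

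The members had a median of 6788.5 control reads and all listed genes one of 1429. Among the 7534 listed genes within the members' range of reads, 2628 to 57264 in both libraries together, 32.2% had an interval above 1 and 27.3% one below. In that range 15.8% were at least 1.1-fold higher and 13.5% lower, against 15.8% and 2.63% of members. The median log2 fold was 0.00 for the members and 0.00 for all listed genes. On the log2 scale the SD of the folds was 0.10 over the members, against 0.14 over the listed genes in that range of reads. Of the 38 folds, 37 lay within the middle 80% of all listed folds, and Atf4 lay at percentile 90.1.

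**Figure D1:**
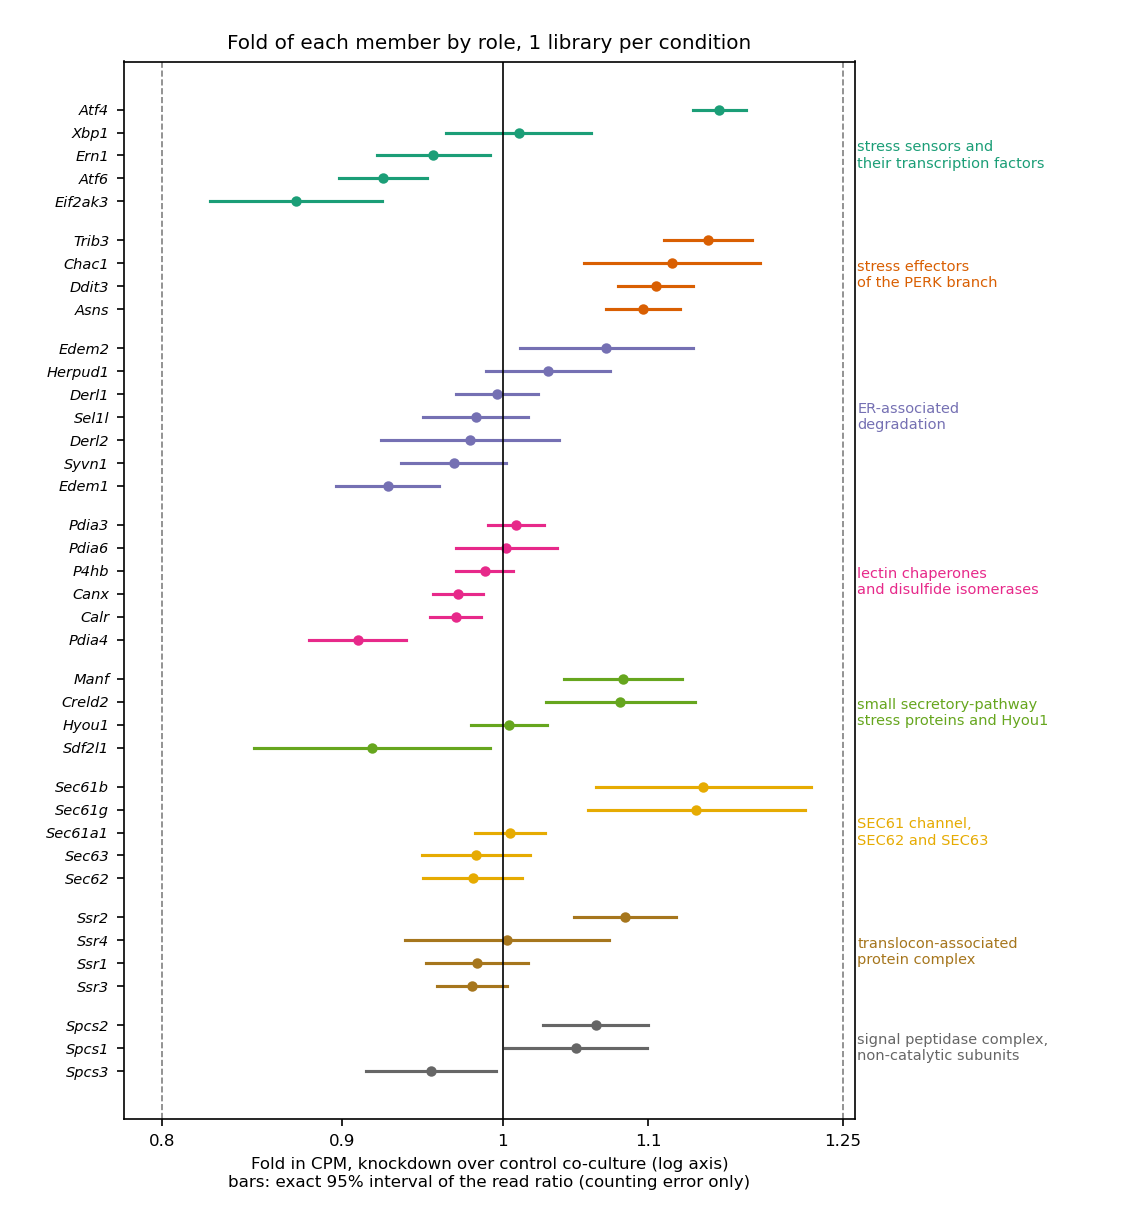
Fold in CPM of each of the 38 members, knockdown over control co-culture, on a log axis, grouped by role; points are folds, bars exact 95% intervals of the read ratio, dashed lines a fold of 0.8 and a level 25% higher. The 5 genes Atf4, Trib3, Chac1, Ddit3 and Asns sit right of 1 with their bars, Eif2ak3, Atf6 and Ern1 left of it, and no bar reaches a dashed line.

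Atf4 carried the clearest difference among the sensors and their transcription factors. It had 23768 control and 26737 knockdown reads, or 496 and 572 CPM. Its fold of 1.15 (95% interval 1.13 to 1.17) was the highest of all 38 members. Control of ATF4 is largely translational, which reads of RNA do not show.

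The sensor genes themselves were on the other side. Eif2ak3, which encodes PERK, had 2651 and 2259 reads (55.3 and 48.3 CPM), a fold of 0.873 (0.825 to 0.924) and the lowest of the members. Atf6 had 9806 and 8849 reads, a fold of 0.925 (0.898 to 0.952). Ern1, the gene of IRE1, had 5851 and 5456 reads, a fold of 0.955 (0.921 to 0.992). Atf6 and Ern1 are among the longest 10% of listed genes, where 55.3% of intervals lay below 1. With the trend of fold on transcript length removed, Atf6 stood at 0.981 and Ern1 at 1.01, and both intervals included 1. Xbp1, whose RNA is the substrate of IRE1, stood level with 3484 and 3436 reads, a fold of 1.01 (0.964 to 1.06); counts per gene do not separate its spliced from its unspliced form. PERK RNA and the RNA of the ATF4 branch thus differed in opposite directions between these libraries.

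The effectors labelled here as the PERK branch stood together above 1. Intervals above 1 were also met by 24.2% of listed genes, and by 32.2% of those within the members' range of reads. Trib3, a pseudokinase that restrains AKT and ATF4, had 8801 control and 9829 knockdown reads, a fold of 1.14 (95% interval 1.11 to 1.18). Chac1, an enzyme that degrades glutathione, had 2262 and 2467 reads, a fold of 1.12 (1.06 to 1.18). Ddit3, which encodes the pro-apoptotic factor CHOP, had 12294 and 13266 reads, a fold of 1.11 (1.08 to 1.13). Asns, asparagine synthetase, had 12740 and 13635 reads, a fold of 1.097 (1.07 to 1.12).

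Summed over the 4 effectors the reads were 36097 and 39197, a fold of 1.11 (95% interval 1.097 to 1.13). Their median log2 fold was 0.15, and 0.085 once the trend of fold on transcript length over all listed genes was removed. The exons of Ddit3 overlap those of Mars, a methionyl-tRNA synthetase gene on the other strand. Such overlaps with another gene were found for 14 of the 38 members, 13 with a gene on the opposite strand and 2 on the same; they include Derl2, Pdia3, Pdia6, Spcs1 and Syvn1. Whether counting used strand was not given in the sources used here; reads of such pairs may therefore be mixed.

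Promoter sequence was searched because ATF4 acts through a composite element that can be found by its letters. The choice of members did not read promoters, but it took known genes of this response. A share of its elements above that of other genes may therefore follow from the choice of list. The windows searched run from 250 bases before to 50 bases after a RefSeq start (build GRCm38.p6) and were found for 31 of the 38 members, in 32 windows; Atf6, Derl1, Hyou1, Manf, Sec61a1, Spcs3 and Ssr2 had no entry. The element was searched on both strands as TGATGNAAN or TTGCATCA; the second, read on the other strand, is also a match to the first wherever a base follows it. It was present in 4 member windows (12.5%), those of Asns, Chac1, Herpud1 and Trib3, against 3.96% of all 32851 windows and 2.52% of the 14624 windows of listed genes. In Trib3 the match, TTTACATCA in the direction of the gene, lies 13 to 21 bases after the start. The stretches before the start of the other 3 follow, 5′ to 3′ in the direction of the gene, with the matches in capitals; in Herpud1 the second run of capitals is the ERSE-II element described below. They lie at chr6:7693210-7693247 on the minus strand (Asns), chr2:119351033-119351071 on the plus strand (Chac1) and chr8:94386301-94386402 on the plus strand (Herpud1).
Asns: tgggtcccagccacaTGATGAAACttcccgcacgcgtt
Chac1: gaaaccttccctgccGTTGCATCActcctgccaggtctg
Herpud1: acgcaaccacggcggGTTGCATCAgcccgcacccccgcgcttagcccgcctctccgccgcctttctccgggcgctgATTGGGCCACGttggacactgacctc
A match is a run of letters and not a measured site. Of the 4 genes that hold it, Asns, Chac1 and Trib3 had intervals above 1, while that of Herpud1 included 1. The windows of the effector Ddit3 and of Atf4 held no match, and both genes also had intervals above 1.

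The ER-associated degradation genes, which pull misfolded proteins back to the cytosol for the proteasome, were mostly level. Edem1, a mannosidase-like factor that marks glycoproteins for disposal, had 7223 control and 6537 knockdown reads, a fold of 0.927 (95% interval 0.897 to 0.959). Its relative Edem2 lay on the other side, with 2374 and 2480 reads, a fold of 1.07 (1.01 to 1.13); with raw reads or the length trend removed this interval included 1. Among all listed genes, 24.2% of intervals lay above 1 and 22.7% below. The other 5 degradation genes had intervals that included 1. That of Syvn1 lay below 1 with total counts, the upper quartile and raw reads, and those of Sel1l and Derl1 with raw reads.

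Herpud1, an ER membrane organiser of the degradation complex and a usual stress marker, had 4618 and 4643 reads, a fold of 1.03. The ubiquitin ligase gene Syvn1 (HRD1) had 6825 and 6450 reads, a fold of 0.968, and its partner Sel1l had 6648 and 6375, a fold of 0.983. Of the derlins, which form part of the exit path, Derl1 stood at 10902 and 10603 reads and Derl2 at 2350 and 2245. Their folds were 0.997 and 0.979. The median log2 fold of the 7 degradation genes was -0.03.

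The lectin chaperones and disulfide isomerases held the most reads of any role and summed to 2466 control and 2414 knockdown CPM, a fold of 0.979 (95% interval 0.971 to 0.987). Canx, the membrane lectin calnexin, had the most reads of all members, 29402 and 27862, a fold of 0.971 (0.955 to 0.987). Calr, its soluble counterpart calreticulin, had 28295 and 26781 reads, a fold of 0.970 (0.954 to 0.986). Pdia4, a multi-domain disulfide isomerase, lay farthest from 1 in this role, with 8128 and 7214 reads, a fold of 0.909 (0.881 to 0.939).

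The remaining isomerases were level. Pdia3, which works with calnexin and calreticulin on glycoproteins, had 23058 and 22701 reads, a fold of 1.01. Pdia6 had 7044 and 6892 reads, a fold of 1.003. P4hb, the founding disulfide isomerase, had 22228 and 21441 reads and a fold of 0.988; its interval included 1 here and lay below 1 with total counts, the upper quartile, raw reads or the length trend removed.

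The promoter elements of ATF6 and XBP1 are shown for the members that hold them, most of which lay at or just below 1. ERSE is CCAAT and CCACG with 9 bases between them, and ERSE-II is ATTGG and CCACG with 1 base between them, each searched on both strands. ERSE was present in 5 of the 32 member windows (15.6%), against 0.119% of all windows and 0.123% of those of listed genes, and ERSE-II in that of Herpud1 alone (3.12%), against 0.0365% of all windows. The UPRE core TGACGTGG was in 0 member windows, where 0.676% of all windows hold it. CCAAT alone was in 65.6% of member windows and 37.4% of all. The members were listed as known genes of this response, so higher shares of its elements may follow from that choice. They are no separate evidence of a response in these libraries. The stretches lie at chr8:84847060-84847108 (Calr, minus strand), chr11:50325785-50325833 (Canx, minus strand), chr12:17266476-17266524 (Pdia6, plus strand), chr19:6046517-6046565 (Syvn1, plus strand) and chr15:88819505-88819553 (Creld2, plus strand) of GRCm38.p6. They are written 5′ to 3′ in the direction of the gene, with ERSE in capitals.
Calr: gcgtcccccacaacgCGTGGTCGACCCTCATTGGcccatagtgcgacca
Canx: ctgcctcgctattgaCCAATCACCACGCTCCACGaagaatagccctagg
Pdia6: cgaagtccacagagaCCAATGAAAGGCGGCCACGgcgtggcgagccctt
Syvn1: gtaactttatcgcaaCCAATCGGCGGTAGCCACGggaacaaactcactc
Creld2: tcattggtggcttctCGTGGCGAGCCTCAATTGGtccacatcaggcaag
The folds of these 5 genes ran from 0.968 in Syvn1 to 1.08 in Creld2, with Calr and Canx below 1 by their intervals and Creld2 above.

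The secreted or luminal stress proteins were split. Manf, a small protein released under ER stress, had 5013 control and 5294 knockdown reads, a fold of 1.08 (95% interval 1.04 to 1.12). Creld2, also secreted under stress, had 3186 and 3359 reads, a fold of 1.08 (1.03 to 1.13). Sdf2l1, a cofactor of the BiP cycle and the member with the fewest reads, went the other way with 1386 and 1242, a fold of 0.918 (0.850 to 0.992). Hyou1, the nucleotide exchange factor of BiP, was level with 12784 and 12529 reads, a fold of 1.004. The interval of Creld2 included 1 with the length trend removed. The exons of Manf overlap those of other genes on both strands.

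In the translocon the 2 small SEC61 subunits differed from the rest. Sec61b had 1501 control and 1671 knockdown reads, a fold of 1.14 (95% interval 1.06 to 1.22). Sec61g had 1461 and 1619 reads, a fold of 1.14 (1.06 to 1.22). Sec61b is among the shortest 10% of listed genes, where 40.1% of intervals lay above 1. Sec61g is in the next 10%, with 40.5%, against 24.2% of all listed genes. With the length trend removed their folds were 1.08 and 1.09. Sec61a1, which encodes the pore itself, was level with 14570 and 14290 reads, a fold of 1.005 (0.982 to 1.03). Sec62 and Sec63, which help chains that enter after their synthesis, had 7395 and 7076 reads and 6240 and 5985 reads, and folds of 0.980 and 0.983.

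The translocon-associated protein (TRAP) complex, which sits beside the channel, and the signal peptidase complex, which removes signal peptides, were near 1 as well. Of the TRAP subunits only Ssr2 had an interval that excluded 1, with 6752 and 7140 reads, a fold of 1.08 (95% interval 1.05 to 1.12). Intervals lay above 1 for 24.2% and below 1 for 22.7% of all listed genes. Among the shortest 10% of listed genes, where Ssr2 falls, 40.1% lay above 1. Ssr1 had 7051 and 6768 reads and Ssr3 had 15193 and 14531, at folds of 0.984 and 0.980, and Ssr4 had 1767 and 1729, at 1.003. These calls changed with the length trend removed, where Ssr2 included 1 (0.990 to 1.06), Ssr1 lay above (1.03 to 1.11) and Ssr3 below (0.941 to 0.985). Ssr3 was also below 1 with total counts, the upper quartile and raw reads, and Ssr1 with raw reads. The accessory signal peptidase subunit Spcs2 had 6437 and 6677 reads, a fold of 1.06 (1.03 to 1.1), and Spcs1 had 3572 and 3658, a fold of 1.05 (1.002 to 1.099). The interval of Spcs1 included 1 with total counts, the upper quartile, raw reads and the length trend removed, where its fold was 0.992.

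Spcs3, the glycosylated subunit needed for cleavage, lay below 1 with 4464 and 4156 reads, a fold of 0.954 (95% interval 0.914 to 0.995). Subunits of 1 complex therefore did not all differ in the same direction. Spcs2 and Calr each have a copy in the annotation marked as a pseudogene (Spcs2-ps and Calr-ps), so how reads were split between copies bears on both.

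Per length, all 38 members were above the median of listed genes in the control library, which was 10.6 CPM per kilobase of longest transcript. In the control library Calr was highest at 270.4 CPM per kilobase, followed by Ddit3 at 265 and Atf4 at 246. In the knockdown co-culture library the order of these 3 was Ddit3 at 293, Atf4 at 283 and Calr at 262 CPM per kilobase. The lowest levels in the control library were those of Derl2 at 11.2, Eif2ak3 at 12.3 and Ssr4 at 14.4 CPM per kilobase. RNA of CHOP (Ddit3) was thus among the most abundant of the members per length in both libraries, though reads of the overlapping gene Mars may be mixed in. No unstressed sample is part of the comparison, and whether the cells were under ER stress was not tested. Of the 38, 29 lay above the 75th percentile of listed genes and 17 above the 90th. Longest transcripts can overstate the expressed length and so understate the level, as may hold for Sec61g, whose longest transcript has 1862 bases.

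**Figure D2:**
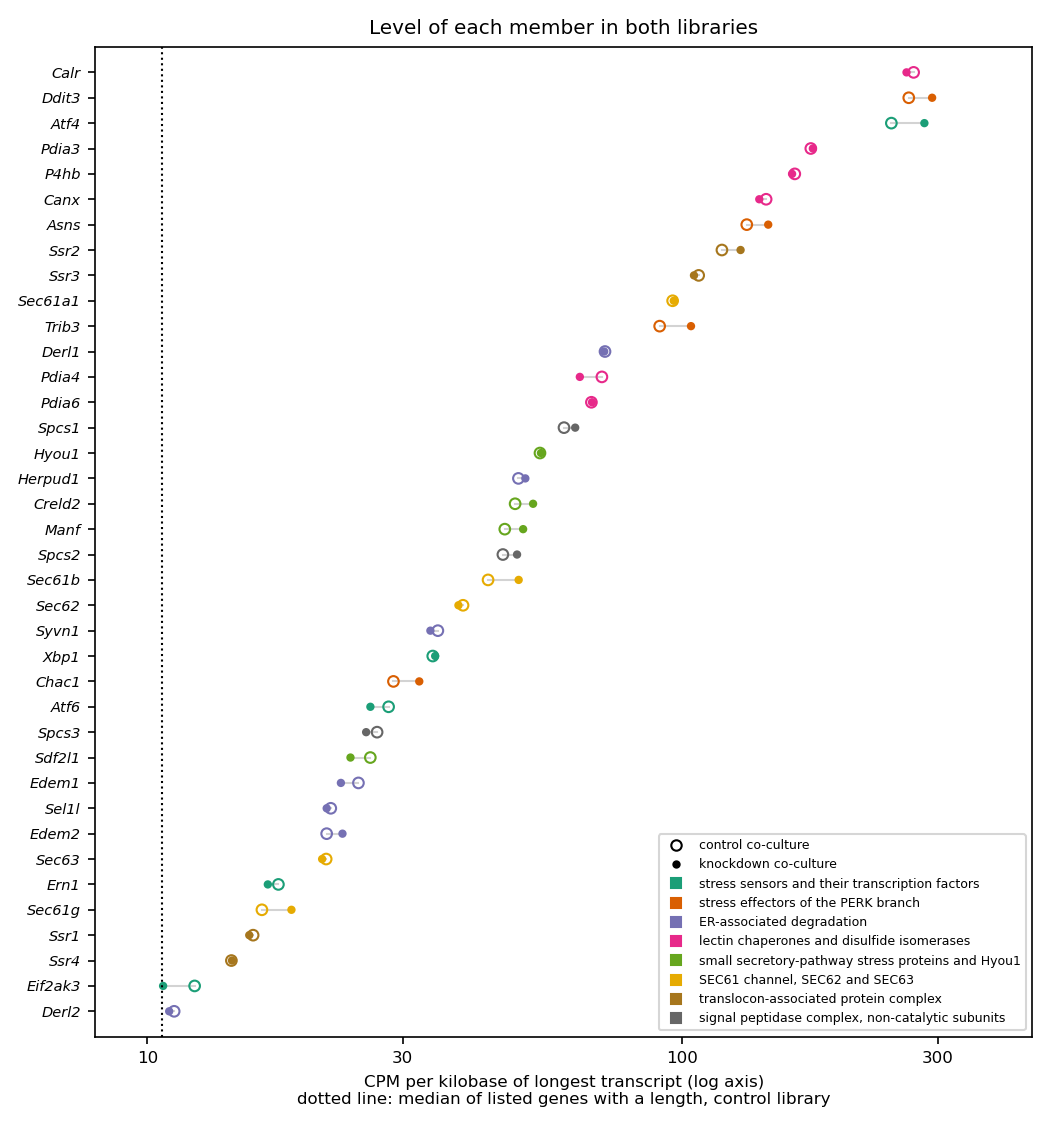
Level of each member as CPM per kilobase of longest transcript (log axis), ordered by the control library; open circles are the control, filled circles the knockdown co-culture library, colours the roles, and the dotted line the median of listed genes. Calr, Ddit3 and Atf4 lie at 246 or higher in both libraries and differ in order between them.

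Transcript length went with the folds, in the members as in all genes. Spearman's rho of log2 fold and length was -0.66 over the 38 members and -0.32 over the 13381 listed genes that have a length; genes share the libraries and their depth, so these are descriptions. The 11 members of at least 4000 bases had 0 intervals above 1 and 5 below (45.5%), against 13.0% above and 36.7% below among the 5087 listed genes of that length. They include Eif2ak3, Atf6, Ern1 and Edem1. The longest 10% of listed genes, where Atf6, Ern1 and Ssr1 fall, stood at a median log2 fold of -0.11, the shortest 10% at 0.09.

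With the trend on length over all listed genes removed, the intervals of Atf6, Ern1 and Edem1 came to include 1. Their folds were then 0.981, 1.01 and 0.968. On the other side Creld2, Edem2, Spcs1 and Ssr2 came to include 1, while Hyou1 and Ssr1 moved above it and P4hb and Ssr3 below. Eif2ak3 stayed below, at 0.887 (95% interval 0.838 to 0.938), as did Pdia4 at 0.885 (0.857 to 0.914) and Sdf2l1 at 0.868 (0.803 to 0.937). Atf4 stayed above at 1.11 (1.09 to 1.13) and Trib3 at 1.103 (1.07 to 1.14). Chac1, Asns and Ddit3 stood at 1.06 (1.005 to 1.13), 1.06 (1.03 to 1.08) and 1.05 (1.02 to 1.07). Sec61b and Sec61g stood at 1.08 (1.01 to 1.16) and 1.09 (1.01 to 1.17). Calls in this setting rest on longest transcripts, such as 1862 bases in Sec61g and 9333 in Ssr1. A shorter expressed form would change the trend removed. What makes length and fold go together in these libraries was not tested.

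**Figure D3:**
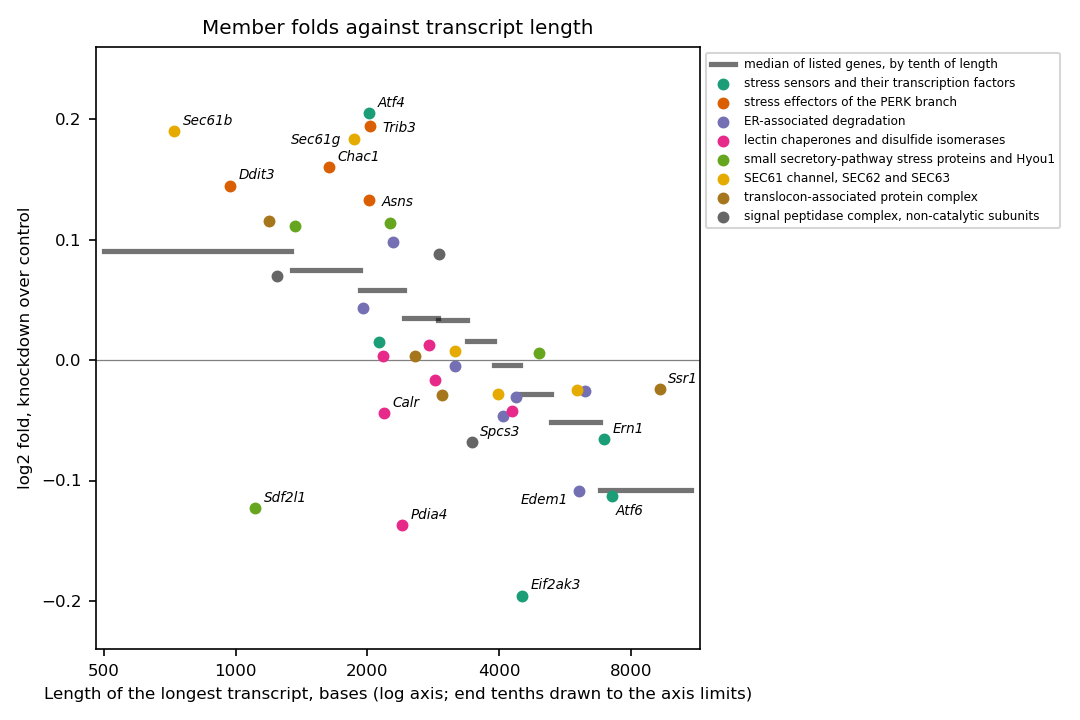
log2 fold of each member (points, coloured by role) against the length of its longest transcript on a log axis; grey bars are the median log2 fold of listed genes in each 10% of genes by length, from 0.09 for the shortest to -0.11 for the longest. Members at 4000 bases or more lie near or below 0, and Sdf2l1, Pdia4 and Eif2ak3 lie lowest relative to the grey bars of their length.

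With TMM and in each of the 5 alternatives that can move a fold (DESeq2 size factors, total counts, the upper quartile, raw reads and removal of the length trend), 9 members had an interval above 1: Asns, Atf4, Chac1, Ddit3, Manf, Sec61b, Sec61g, Spcs2 and Trib3. Another 6 were below 1 in all of them: Calr, Canx, Eif2ak3, Pdia4, Sdf2l1 and Spcs3. These are 23.7% and 15.8% of the members, against 17% and 16.8% of the 13381 listed genes with a length and 20.4% and 18.5% of the 7449 of these within the members' range of reads. The members' shares were thus close to those of other genes. These settings share the same 2 libraries and say nothing of replicate cultures.

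The rest of the pathway was described from lists of genes that are not members, chosen with earlier results of these data known. Of 29 other genes of stress signalling and ATF4 targets, all listed, 18 had an interval above 1 (62.1%) and 2 below, with a median log2 fold of 0.08. Of all listed genes 24.2% had an interval above 1 and 22.7% one below. Within the members' range of reads these shares were 32.2% and 27.3%. The median control level was 137 CPM in this list and 29.8 CPM over all listed genes, and intervals narrow with more reads. The gene farthest above 1 was Cth, which makes cysteine from cystathionine, with 3496 and 4204 reads, a fold of 1.23 (95% interval 1.18 to 1.29). By its nearer interval bound Eif2ak2, the RNA-activated kinase PKR, lay farthest below at 0.952 (0.925 to 0.980); by fold it was Mbtps2, a protease that cuts ATF6, at 0.935 (0.886 to 0.987). Ppp1r15a, the phosphatase subunit GADD34 that reverses PERK signalling, stood at 1.12 (1.09 to 1.15).

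Phgdh, Psat1 and Atf5 from this list are named after their values were seen. The enzyme genes Phgdh and Psat1 stood at 1.17 (95% interval 1.15 to 1.20) and 1.14 (1.12 to 1.16), and the transcription factor gene Atf5 at 1.14 (1.12 to 1.17). None of the 29 was 25% higher, and none as low as 0.8-fold. Not all are targets of ATF4, since the list also holds other kinases of eIF2-alpha and proteases that cut ATF6.

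The other ER chaperones and folding enzymes lay the other way. Of 25 such genes 24 were listed, with 10 intervals below 1 (41.7%) and 2 above, and a median log2 fold of -0.04. Among all listed genes 22.7% of intervals lay below 1 and 24.2% above. Within the members' range of reads 27.3% lay below and 32.2% above. Hspa5, which encodes BiP, the chaperone that holds the sensors inactive, had 51783 and 49297 reads, a fold of 0.975 (95% interval 0.963 to 0.988). Hsp90b1, the ER form of HSP90, stood at 0.958 (0.947 to 0.970). Dnajb9, a co-chaperone induced through IRE1 and XBP1, had 1301 and 1049 reads, a fold of 0.826 (0.761 to 0.897). By its nearer interval bound Ero1b, an oxidase of disulfide formation, lay farthest below at 0.849 (0.809 to 0.890), and Fkbp2, a prolyl isomerase, farthest above at 1.18 (1.11 to 1.255).

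The lists of degradation, signal recognition and glycan transfer were nearer to even. For comparison, 24.2% of all listed genes had intervals above 1 and 22.7% below. Within the members' range of reads these were 32.2% and 27.3%. Of 22 other degradation genes 21 were listed, with 9 intervals above 1 and 4 below, from Marchf6, a membrane ubiquitin ligase, at 0.889 to Ube2j2, an ER ubiquitin-conjugating enzyme, at 1.13. Of 15 genes of the signal recognition particle, its receptor and related translocation factors, 4 lay above and 3 below. There Srprb, a receptor subunit, stood at 1.14. Tram2, a relative of the translocating chain protein TRAM1, had 265 and 152 reads, a fold of 0.588 (95% interval 0.478 to 0.720), and was the only gene of all 117 listed pathway genes beyond these bounds of 0.8-fold and 25% higher.

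Of 12 subunits of oligosaccharyltransferase, which adds glycans to entering chains, 5 lay above and 3 below, from Magt1 at 0.909 to Krtcap2 at 1.19. The ER membrane protein complex and tail-anchor insertion were one-sided, with a median log2 fold of 0.09. Of 17 such genes 16 were listed, and 9 had intervals above 1 (56.2%) and 0 below, with Sgta, a co-chaperone of tail-anchored proteins, at 1.19. The shares of all listed genes were 24.2% above and 22.7% below, and within the members' range of reads 32.2% and 27.3%. The median length of these 16 was 2046 bases, against 3375 for listed genes. With the length trend removed their median log2 fold was 0.05 in place of 0.09.

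**Figure D4:**
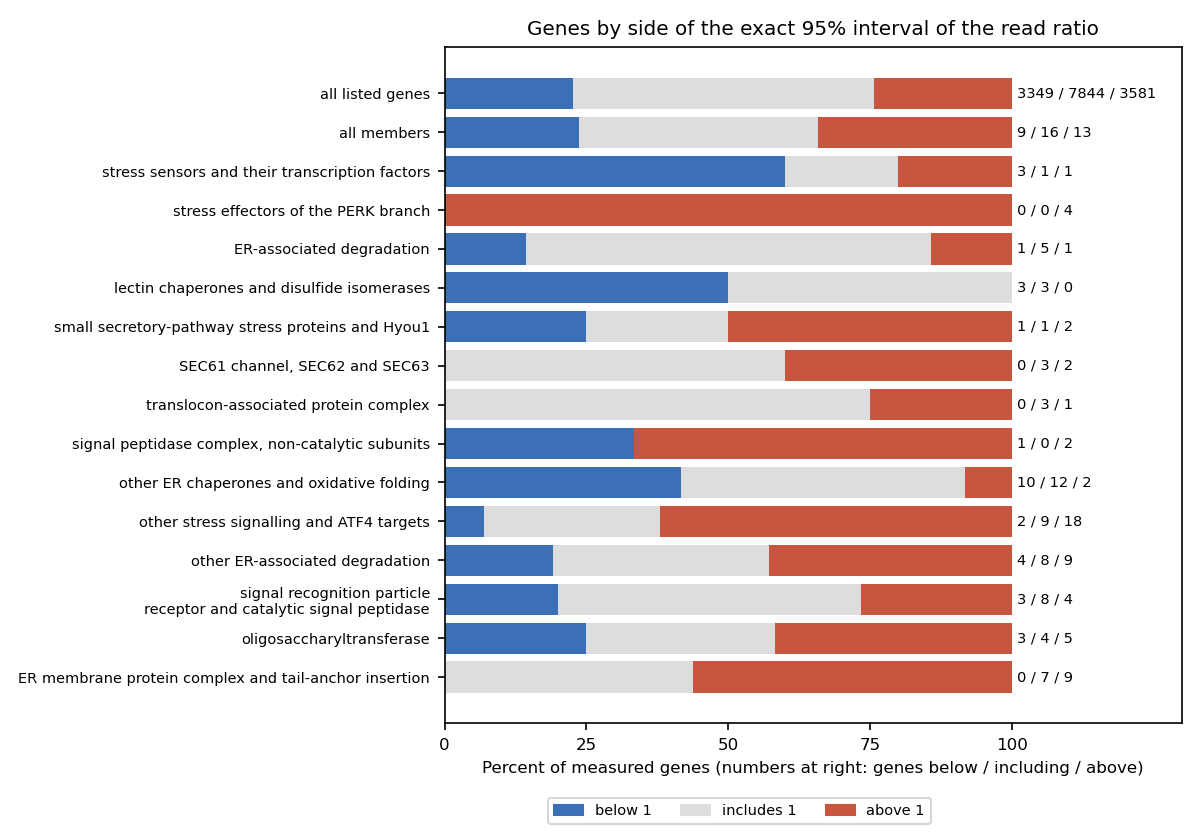
Percent of the measured genes of each list whose exact 95% interval of the read ratio lies below 1 (blue), includes 1 (grey) or lies above 1 (red), for all listed genes, all members, each role of the members and each list of other pathway genes; numbers at the right are gene counts. The 4 effectors of the PERK branch are all above 1, and of the other ATF4 and stress signalling genes 18 are above and 2 below. Of all listed genes, 24.2% are above and 22.7% below.

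Markers of other cells differed between the libraries too. The counts below stand beside 24.2% of all listed genes with an interval above 1 and 22.7% with one below. All 13 listed macrophage and monocyte markers of 14 had intervals below 1, with a summed level of 1349 control and 957 knockdown CPM. Most of that sum was Lyz2, a lysozyme, at 875 and 643 CPM. Itgam, the integrin CD11b, stood at 127 and 102 CPM. The median log2 fold of the 13 was -0.80, lower than that of Lyz2 or Itgam. Of the 13, 10 were at 0.8-fold or lower, as were 4.9% of listed genes. At least 2-fold lower were 5 of them, where 0.142% of listed genes were 2-fold apart either way. Of 10 B cell markers 9 lay below 1, from 2973 to 2654 CPM summed, with Cd79a at 559 and 517 CPM and Cd22 at 459 and 403 CPM. Plasma cells are rich in this pathway, and of 10 plasma cell markers 7 were listed, 3 above and 3 below 1, at 266 and 256 CPM summed. Among them Mzb1, an ER protein of antibody-secreting cells, had 2316 and 2212 reads, Prdm1, their master regulator, 129 and 91, Irf4 3264 and 2683 and Tnfrsf13b 4157 and 3733; Jchain was not analysed here. The 3 above 1, named after their values were seen, were Sdc1 (CD138) at 1.14, Cd27 at 1.15 and Fkbp11 at 1.33.

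Of 14 markers of matrix-producing cells 13 were listed, 2 above and 4 below 1, at 2884 and 2769 CPM summed, with the matrix genes Col5a2 at 1009 and 933 CPM and Fn1 at 640 and 570 CPM. The 2 above 1, named after their values were seen, were the collagen genes Col1a1 at 1.05 and Col5a1 at 1.102. The 11 listed T cell and Treg markers summed to 149.5 and 147 CPM, 1 above and 2 below 1, with Lat, an adaptor of the T cell receptor, at 30.4 and 29.1 CPM and Cd3d at 24.7 and 22.6 CPM. Of 11 endothelial markers 4 were listed, 1 above and 1 below 1, at 104.7 and 102 CPM summed, with Pecam1 at 83.9 and 79.7 CPM and Vwf at 11.3 and 13.1 CPM. Each listed gene has at least 100 control reads, so no listed marker could stand at 0 in the control library. Markers that start lower would not be listed. The part of these cells in the folds of the 38 members was not tested.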

How the data were processed

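The authors deposited 1 table for both libraries, with mapped reads per gene as counts that are not normalized, per the file headers. Of its per-sample columns, 4 with the authors' scaled values were not used here. The submitters' processing notes list Trimmomatic 0.39, BWA 0.7.17, mm8 and GRCm39 without saying what each was used for; how reads were assigned to genes was not given in the sources used here. BWA is not splice-aware, so junction reads can be lost. The columns named Cont and Si were matched to the control and knockdown samples by the meaning of these prefixes, on which every direction rests. The row of library totals (48100576 and 47300284 reads) was left out; 0.782% and 0.764% of these reads belong to no listed gene. Each listed gene has at least 100 control reads, so genes that start lower are not analysed here.

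CPM used edgeR 4.0.16 TMM factors (R 4.3.3). With 1 library per group no dispersion can be estimated, and edgeR's tests were not run. Folds, exact Clopper-Pearson intervals and lowess trends were computed in Python 3.11.15 with scipy 1.17.1 and statsmodels 0.14.6; log2 folds used a prior count of 0.5. The interval code was tested on simulated data. At this depth 3 reads equal 0.0626 and 0.0642 CPM. Lengths are those of the longest GENCODE M21 transcript (90.6% of listed genes, all 38 members); promoters are from RefSeq, GRCm38.p6. That build is not among those the notes name, so its coordinates locate promoters only. Alternatives were total counts, DESeq2 1.42.0 size factors, the upper quartile, raw reads, a minimum of 5 CPM, a prior count of 5, a fold of 1.5 and removal of the length trend. Every member is named. From each other pathway list the text names the gene farthest from 1 each way by the nearer interval bound, plus Hspa5, Hsp90b1, Dnajb9 and Ppp1r15a, and from each marker list the 2 with most reads, plus Mzb1, Jchain, Prdm1 and Irf4. Outside this rule, Mbtps2, Phgdh, Psat1, Atf5, Sdc1, Cd27, Fkbp11, Col1a1 and Col5a1 were named after their values were seen. Members and lists were chosen with earlier results of these data known.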

Additional observations from a re-analysis of the deposited data

How the results depend on the processing

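Scaling decides the balance of members above and below 1. It was 13 to 9 with TMM and with DESeq2 size factors, 12 to 12 with total counts and with the upper quartile, and 11 to 17 with raw reads, which leave the smaller knockdown co-culture library unscaled. The shares of all listed genes above and below 1 were 24.2% and 22.7% with TMM, 24.1% and 22.8% with DESeq2, 22.3% and 24.6% with total counts, 21.8% and 25.1% with the upper quartile, and 17.9% and 29.9% with raw reads. The number of members at least 1.1-fold lower was 2 in place of 1 with DESeq2 size factors, total counts or the upper quartile, and 5 with raw reads; of all listed genes 15.3%, 16.8%, 17.2% and 20.7% were so in these settings. With the length trend removed, 3 members were at least 1.1-fold lower and 2, in place of 6, at least 1.1-fold higher, against 12.5% and 12.5% of listed genes. In that setting the median log2 fold of the PERK branch effectors was 0.085 in place of 0.15, and that of the signal peptidase subunits -0.012 in place of 0.07. Only Ssr1 had an interval above 1 in one setting (length trend removed) and below 1 in another (raw reads). The counts of 0 at folds of 2, 0.8 and 25% higher held in every setting run, and at a fold of 1.5. A minimum of 5 CPM and a prior count of 5 cannot move a member's fold or interval. In the 5 settings that can, 166 of 190 recomputed member folds lay within the gene's own interval with TMM. With 1 library per condition the spread between cultures is unknown, and no paired analysis was possible because each condition has 1 library.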
